A study of Mus musculus with 4 samples.

Results

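The contractile and actin cytoskeleton genes described here are 44 genes picked by symbol from the 21839 genes of the series' expression table. All 44 symbols were found in the table. They were read in 4 classes: 15 muscle-type genes, whose proteins are best known from smooth, skeletal or cardiac muscle; 24 general cytoskeletal genes, used by most adherent cells; 3 genes (Tpm1, Tpm2 and Cald1) that make muscle and non-muscle isoforms by alternative splicing or promoters; and 2 transcriptional regulators, Srf and Myocd. Actin filaments are built from monomers encoded by several genes, are crosslinked by proteins such as alpha-actinin and filamin, and are pulled by myosin II, a motor made of heavy and light chains. Fibroblasts that take up smooth-muscle isoforms of this machinery, above all the alpha-smooth muscle actin encoded by Acta2, are called myofibroblasts, and such cells contract wounds and lay down scar tissue. The transcription factor SRF, with its actin-sensing partners of the MRTF family or with myocardin, is known to drive many of these genes through a DNA element called the CArG box.

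The RNA came from wild-type (WT) mouse embryonic fibroblasts (MEFs), primary cells taken from C57BL/6 embryos at day 13.5 and grown on the upper side of a culture insert with a membrane of 0.4 µm pores, and it was extracted after 48 h. The 4 conditions were MEFs cocultured with bone marrow mesenchymal stem cells (MSCs) in the presence of the NF-κB pathway inhibitor QNZ, MEFs alone with QNZ, MEFs cocultured with MSCs without QNZ, and MEFs alone without QNZ. The MSCs grew below the membrane and shared only the medium, and the dose of QNZ and any vehicle given to the other cells are not given in the sources used here. The coculture libraries show how the fibroblasts differed in the presence of MSCs, and the QNZ libraries show the same under the inhibitor. Each condition had 1 library and there were no replicates, so the spread between cultures is unknown, no difference below was tested, and each difference belongs to a pair of libraries.

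The libraries held 13153696 assigned reads (cocultured with QNZ), 15778488 (alone with QNZ), 14872767 (cocultured) and 15407979 (alone). Levels are given as FPKM, reads per kilobase of exon per 1000000 reads, which allows comparison between genes. Differences are differences of log2(FPKM + 1), which understate the change of genes near or below 1 FPKM, and a gene is called higher or lower when this difference is at least 1 in size. A gene was taken as measured when it reached 1 FPKM in any library, as did 11335 genes and 42 of the 44 members. The 2 that did not were Actc1, the cardiac actin, with 3 reads in cocultured MEFs with QNZ, 1 in MEFs alone with QNZ, 15 in cocultured MEFs and 1 in MEFs alone, and Myocd, the gene of myocardin, with 6 reads with coculture and QNZ, 14 alone with QNZ, 4 in coculture and 3 alone. Their levels are at the edge of detection, where 3 reads, the limit that a count of 0 allows, are 0.190 to 0.228 reads per 1000000 reads (CPM).

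The cells carried the transcripts of their label. Of 8 fibroblast markers, 7 were measured, S100a4 was near 0, and the list summed to 1564 FPKM in cocultured MEFs with QNZ, 967 in MEFs alone with QNZ, 2129 in cocultured MEFs and 1405 in MEFs alone. Of 11 skeletal muscle markers only Chrna1 reached 1 FPKM, Myf5, Pax7 and Ckm had no read in any library, and the list summed to 1.88 FPKM with coculture and QNZ, 0.760 alone with QNZ, 2.62 in coculture and 0.981 alone. The 7 cardiac markers summed to at most 1.77 FPKM and the 6 endothelial markers to at most 0.658 FPKM in any library. A pericyte list (3 of 7 genes measured) was higher in coculture as a sum, at 43.6 FPKM in cocultured MEFs with QNZ, 23.6 in MEFs alone with QNZ, 56.5 in cocultured MEFs and 33.2 in MEFs alone, which is the opposite direction to the muscle-type genes below. Cspg4 (18.2 FPKM in cocultured MEFs and 2.71 in MEFs alone) and Notch3 (8.18 FPKM in cocultured MEFs and 1.76 in MEFs alone) were higher, and Mcam was level without QNZ (0.04) and lay at -0.40 with it. A macrophage list (3 of 7 measured) summed to 11.2 FPKM with coculture and QNZ, 10.8 alone with QNZ, 16.3 in coculture and 8.04 alone, and a bone marrow stroma list (5 of 8 measured) to 263 FPKM with coculture and QNZ, 188 alone with QNZ, 383 in coculture and 506 alone. Within the stroma list 2 of the 5 measured genes were higher in cocultured MEFs than in MEFs alone and 0 were lower. Of all measured genes, 24.0% were higher and 11.0% were lower. The 2 were Cxcl12, a chemokine of marrow stroma (100.4 FPKM in cocultured MEFs and 26.2 in MEFs alone), and Kitl, the ligand of the receptor Kit (a difference of 1.77). Cxcl12, Kitl, Cspg4 and Notch3 are long genes of 5911 to 11931 bases. In this range the trend of all genes with length, described below, lies above 0, and these genes were not tested apart from it. Ly6a was lower by less than 1 (227 FPKM in cocultured MEFs and 446 in MEFs alone). The part of these lists in the results was not tested. These are bulk libraries, so that fewer cells of a kind and less RNA per cell cannot be told apart.

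In MEFs cocultured with MSCs, the muscle-type genes were lower than in MEFs alone. Of the 42 measured members 18 were lower by at least 1 and 1 was higher, whereas 11.0% of all 11335 measured genes were lower and 24.0% were higher. Among the 14 measured muscle-type genes, 10 were lower, 0 were higher, and the median difference was -1.27. The 24 general cytoskeletal genes were more divided: 6 were lower, 1 was higher, and the median was -0.60. Over all measured genes the median was 0.35. The median of the muscle-type class thus differed from that of all genes by -1.62, and the median of the general class by -0.95. Part of the shift of all genes depends on scaling, since the all-gene median was -0.07 when libraries were scaled by the median of ratios and 0.90 as TPM, where the length-scaled values of each library sum to 1000000. Relative to these, the muscle-type median differed by -1.69 and -1.82 and the general median by -1.06 and -0.98. As TPM, 8 members were lower and 5 were higher (Cald1, Myh10, Pdlim5, Synpo2 and Vcl), and Cfl1, Cnn2, Csrp2, Lmod1, Myh11, Myl12a, Myl6, Pfn1, Tagln and Tpm1 no longer reached the size of 1.

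**Figure D1:**
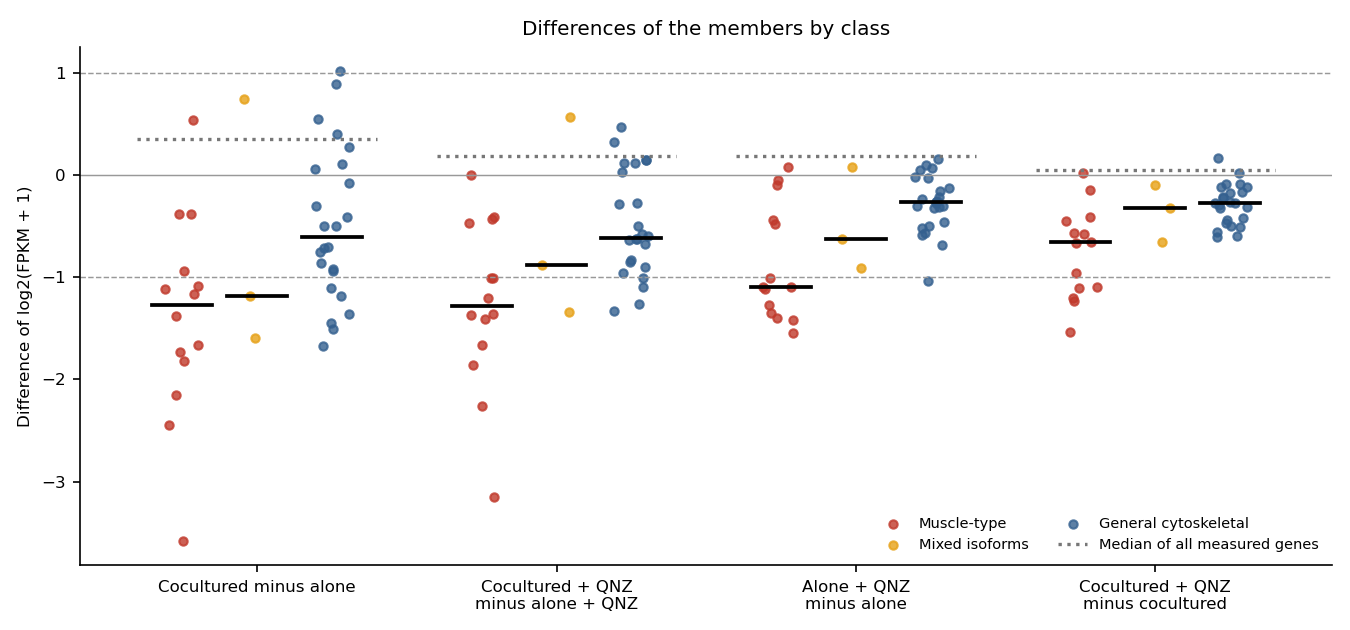
Difference of log2(FPKM + 1) (vertical axis) of each measured gene in the muscle-type, mixed-isoform and general classes for the 4 comparisons; bars are class medians, dotted lines the median of all 11335 measured genes, and dashed lines the size of 1. From left to right the muscle-type medians lie at -1.27, -1.28, -1.10 and -0.66, each below the general medians of -0.60, -0.61, -0.27 and -0.27.

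Among the actins, the muscle forms differed most. Acta2 stood at 456 FPKM in cocultured MEFs with QNZ, 1217 in MEFs alone with QNZ, 985 in cocultured MEFs and 3113 in MEFs alone, where it ranked 7 among all genes. In cocultured MEFs it was 3.16 times lower than in MEFs alone (ratio of CPM 0.316, 95% counting interval 0.312 to 0.320). The exact intervals given here and below cover counting error only. Acta1, the skeletal muscle actin, had 18.5 FPKM in cocultured MEFs with QNZ, 172 in MEFs alone with QNZ, 29.8 in cocultured MEFs and 369 in MEFs alone. Its difference of -3.59 between cocultured MEFs and MEFs alone was the most negative of the 42 measured members, a ratio of 0.0808 (0.0746 to 0.0873), or 12.4 times lower. Actg2, the enteric smooth muscle actin, had 10.3 FPKM with coculture and QNZ, 39.8 alone with QNZ, 20.9 in coculture and 118 alone, and was 5.66 times lower in cocultured MEFs than in MEFs alone. In all of these the 2 libraries of MEFs alone lay above the 2 coculture libraries under the same QNZ condition. The cytoplasmic actins, which form the filaments of the cell cortex and stress fibres in all cells, differed less. Actb had 930 FPKM in cocultured MEFs with QNZ, 1481 in MEFs alone with QNZ, 1125 in cocultured MEFs and 1836 in MEFs alone, a difference of -0.71 between the libraries without QNZ. Actg1 had 678 FPKM with coculture and QNZ, 1227 alone with QNZ, 816 in coculture and 1480 alone, a difference of -0.86. Levels of Actg1 are less certain, because 56.7% of its 50-base stretches also occur in other annotated genes, against 14.2% for Actb, 2.22% for Acta1 and 0.352% for Acta2.

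**Figure D2:**
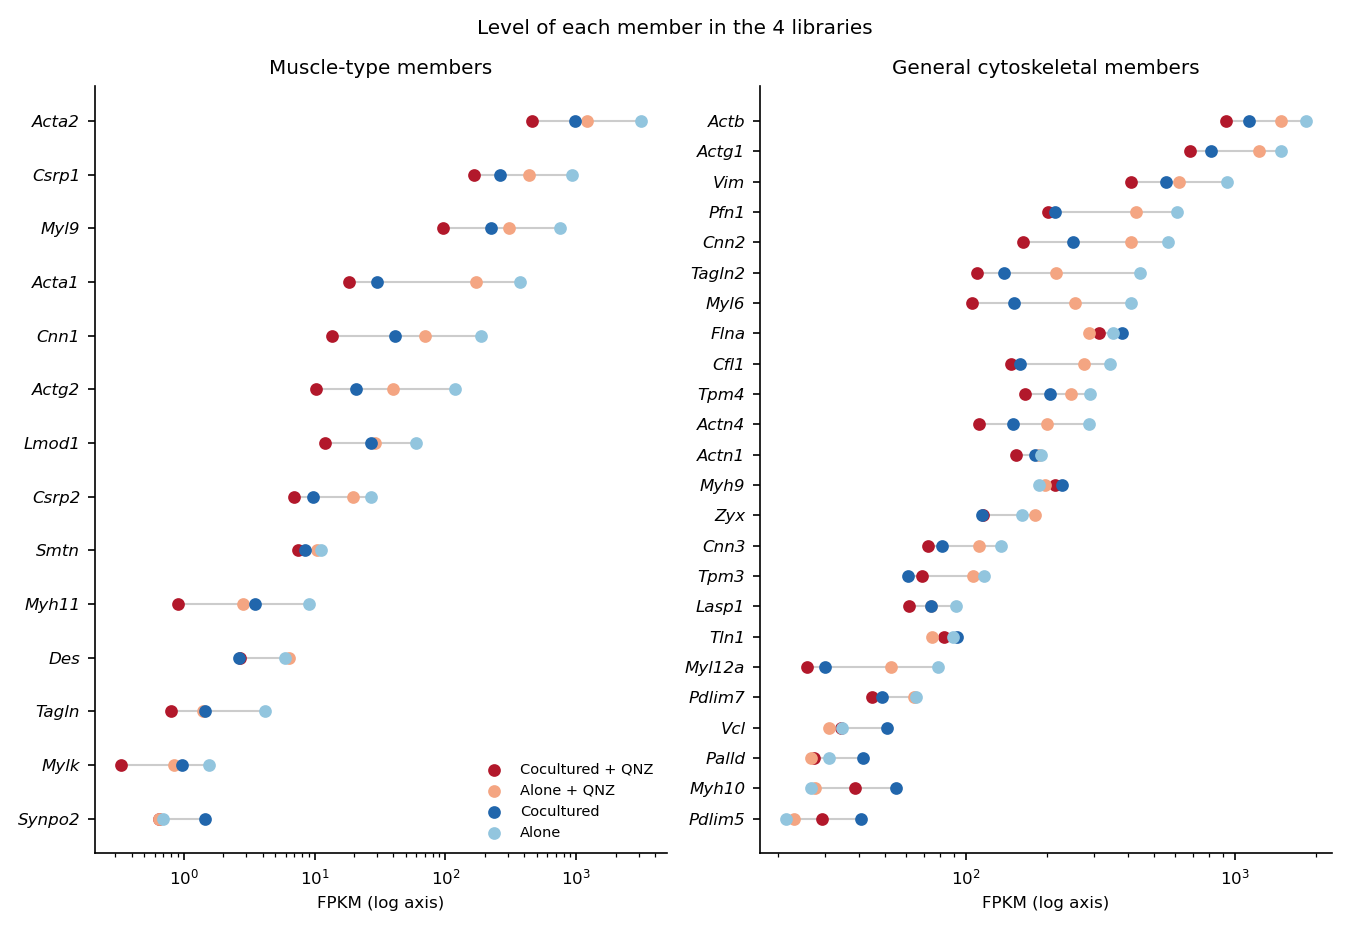
Level of the 14 measured muscle-type genes (left) and the 24 general genes (right) in FPKM on a log axis, 1 point per library. In 12 of the 14 muscle-type genes the lowest point is cocultured MEFs with QNZ and the highest is MEFs alone, for example 456 and 3113 FPKM for Acta2. The same holds for 15 of the 24 general genes, and the count over all genes is not given.

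The balance between muscle and cytoplasmic actin can be read within each library, free of the library total. Muscle actins made up 19.6% of all actin reads in cocultured MEFs with QNZ (95% Clopper-Pearson interval 19.3 to 19.9%), 29.3% in MEFs alone with QNZ (29.1 to 29.5%), 30.2% in cocultured MEFs (29.9 to 30.5%) and 46.2% in MEFs alone (46.0 to 46.3%). Coculture and QNZ were each accompanied by a lower muscle share, and the library with both had the lowest. Counted by FPKM, which allows for the lengths of the genes, muscle actins made up 23.2% of actin with coculture and QNZ, 34.5% alone with QNZ, 34.8% in coculture and 52.1% alone. The level of all 6 actins together was 2093 FPKM in cocultured MEFs with QNZ, 4137 in MEFs alone with QNZ, 2977 in cocultured MEFs and 6916 in MEFs alone. The ratio of Acta2 to Actb in FPKM was 0.491 in cocultured MEFs with QNZ, 0.822 in MEFs alone with QNZ, 0.875 in cocultured MEFs and 1.70 in MEFs alone, so that Acta2 exceeded Actb only in MEFs alone without QNZ.

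**Figure D3:**
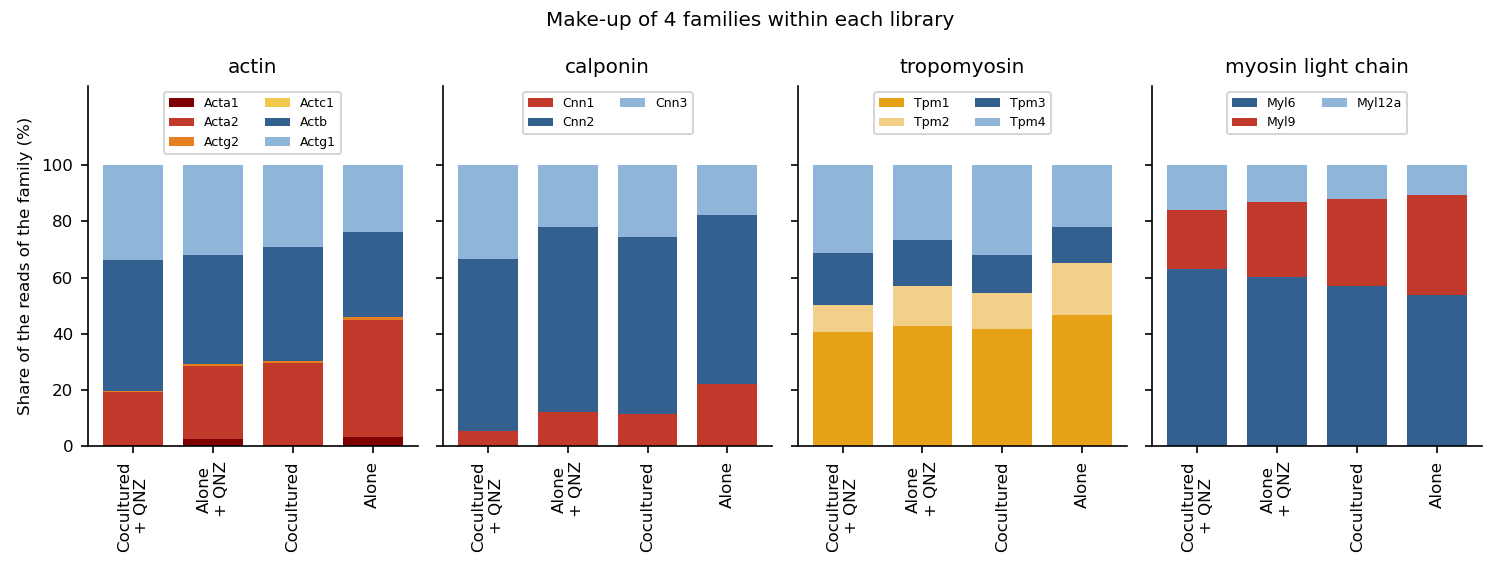
Share of the reads of the actin, calponin, tropomyosin and myosin light chain families taken by each gene (vertical axis, %), with 1 bar per library. The muscle actin part of the bars is 19.6% in cocultured MEFs with QNZ and 46.2% in MEFs alone, and Cnn1 takes 5.67% and 22.2% of the calponin reads in the same bars.

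Acta2 lies on the minus strand of chromosome 19 at 34241090 to 34255590, Acta1 on the minus strand of chromosome 8 at 123891769 to 123894751, and Actg2 on the minus strand of chromosome 6 at 83512905 to 83536265 (mm10). Actb lies on the minus strand of chromosome 5 at 142903115 to 142906754, and Actg1 on the minus strand of chromosome 11 at 120345690 to 120348542. Because SRF is the regulator shared by many of these genes, RefSeq promoters (GRCm38.p6, 250 bases before to 50 bases after the start site) were searched on both strands for the CArG box, and 38 of the 44 members had an entry. Those with none were Actb, Actg2, Csrp2, Myh11, Myocd and Tagln. An exact box (CC, 6 bases of A or T, then GG) was found in 8 of the 38 (21.1%), against 1.81% of the 27025 genes in the promoter table. A box that was exact or held 1 G or C among these 6 bases was found in 11 of the 38 (28.9%), against 11.3%. Boxes said below to differ at 1 base are of this kind, and changes in the CC or GG were not searched. The 8 with an exact box were the muscle-type Acta1, Actc1 and Myl9, the general Actg1, Cnn2, Myl6 and Vcl, and Srf itself. A match describes letters in this window only, and binding was not measured. The stretches printed here show the boxes, in capitals, in 3 muscle-type genes that were lower in coculture, in 2 general genes, a cytoplasmic actin and a calponin, and in Srf. They cover chr8:123894827-123894992 (Acta1, minus strand), chr19:34255386-34255469 (Acta2, minus strand), chr2:156775291-156775386 (Myl9, plus strand), chr11:120348564-120348597 (Actg1, minus strand), chr10:79988532-79988565 (Cnn2, plus strand) and chr17:46556203-46556256 (Srf, minus strand), each written 5′ to 3′ on the strand of the gene.
Acta1: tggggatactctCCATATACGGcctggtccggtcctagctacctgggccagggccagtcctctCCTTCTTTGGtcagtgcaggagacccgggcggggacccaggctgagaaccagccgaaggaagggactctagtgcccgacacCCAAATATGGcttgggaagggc
Acta2: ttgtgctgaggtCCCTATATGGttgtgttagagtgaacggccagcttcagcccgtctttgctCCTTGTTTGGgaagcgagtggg
Myl9: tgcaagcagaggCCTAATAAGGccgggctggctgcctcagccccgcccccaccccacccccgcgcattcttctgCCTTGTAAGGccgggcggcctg
Actg1: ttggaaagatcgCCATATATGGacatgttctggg
Cnn2: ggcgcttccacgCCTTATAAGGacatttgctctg
Srf: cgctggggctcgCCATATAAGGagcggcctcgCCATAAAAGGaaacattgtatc
Acta1 holds 1 exact box, its first base 73 bases before the start site, and 2 boxes that differ at 1 base, whereas both boxes of Acta2 differ at 1 base. Actg1 holds an exact box 90 bases before its start site and Cnn2 one at 56 bases. Boxes were thus present in genes of both classes, including Actg1, whose difference did not reach 1. Among genes with a promoter entry, 3 of 11 muscle-type genes (27.3%) and 4 of 23 general genes (17.4%) held an exact box. Whether a box went with the differences was not tested.

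Of the actin-binding proteins of the muscle-type class, Cnn1, Lmod1, Csrp1 and Csrp2 were lower in coculture, and Smtn and Synpo2 were not. Cnn1, calponin 1, which binds actin and restrains myosin in smooth muscle, had 13.6 FPKM in cocultured MEFs with QNZ, 69.4 in MEFs alone with QNZ, 41.5 in cocultured MEFs and 188 in MEFs alone, and was 4.52 times lower in cocultured MEFs than in MEFs alone (ratio 0.221, 0.210 to 0.233). Its general relatives differed less. Cnn2 had 163 FPKM with coculture and QNZ, 412 alone with QNZ, 249 in coculture and 565 alone, a difference of -1.18, and Cnn3 one of -0.71. Cnn1 therefore took a smaller share of the calponin reads in coculture, 11.6% in cocultured MEFs and 22.2% in MEFs alone. Lmod1, leiomodin 1, which starts new actin filaments in smooth muscle, had 12.1 FPKM with coculture and QNZ, 29.1 alone with QNZ, 26.9 in coculture and 59.5 alone and was 2.21 times lower in cocultured MEFs than in MEFs alone. Csrp1 and Csrp2 encode small LIM proteins of actin bundles and of smooth muscle differentiation. Csrp1 had 166 FPKM in cocultured MEFs with QNZ, 432 in MEFs alone with QNZ, 262 in cocultured MEFs and 926 in MEFs alone, a difference of -1.82 without QNZ. Csrp2 had 7.0 FPKM with coculture and QNZ, 19.5 alone with QNZ, 9.66 in coculture and 26.8 alone, a difference of -1.38. Smtn, smoothelin, had 7.46 FPKM with coculture and QNZ, 10.4 alone with QNZ, 8.38 in coculture and 11.2 alone, a difference of only -0.38 that turned positive as TPM. Synpo2, an actin-bundling protein of the muscle Z-disc, was the sole measured muscle-type gene above 0, with 0.651 FPKM with coculture and QNZ, 0.644 alone with QNZ, 1.46 in coculture and 0.699 alone and a difference of 0.54 that turned negative after the length trend was removed.

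Tagln, which encodes transgelin and is usually an abundant product of fibroblasts and smooth muscle, was listed at only 0.803 FPKM (21 reads) in cocultured MEFs with QNZ, 1.4 (44 reads) in MEFs alone with QNZ, 1.45 (43 reads) in cocultured MEFs and 4.21 (129 reads) in MEFs alone. Its ratio of 0.345 between cocultured MEFs and MEFs alone (0.239 to 0.491) rests on these few reads. On the mm10 map 67.9% of its exonic bases are overlapped on the opposite strand by Pcsk7 and Gm48529, and Pcsk7 had 519 reads with coculture and QNZ, 621 alone with QNZ, 621 in coculture and 669 alone. The sources used here do not give how reads of overlapping genes were assigned, so the level of Tagln is uncertain and its low value was not traced further. Its general relative Tagln2 had 110 FPKM with coculture and QNZ, 216 alone with QNZ, 138 in coculture and 444 alone and was 3.21 times lower in cocultured MEFs than in MEFs alone, the most negative difference (-1.68) among the general genes.

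Among the myosin II members all 3 light chains were lower in coculture. Myl9, the regulatory light chain of smooth muscle and non-muscle myosin, had 96.4 FPKM in cocultured MEFs with QNZ, 308 in MEFs alone with QNZ, 224 in cocultured MEFs and 747 in MEFs alone, and was 3.34 times lower in cocultured MEFs than in MEFs alone. The other light chains among the members differed in the same direction. Myl6, the essential light chain, had 106 FPKM with coculture and QNZ, 255 alone with QNZ, 151 in coculture and 412 alone, a difference of -1.44. Myl12a, a regulatory light chain, had 25.7 FPKM with coculture and QNZ, 52.8 alone with QNZ, 30.1 in coculture and 78.7 alone, a difference of -1.36. After the length trend was removed Myl6 was at -1.46 and Myl12a at -1.42, against -0.93 for Myl9. Myl9 made up 20.9% of the light chain reads with coculture and QNZ, 26.5% alone with QNZ, 30.9% in coculture and 35.5% alone. Myl12a shares 29.6% of its 50-base stretches with other genes, mainly its neighbour Myl12b. Myl12b, not a member, had 39 reads in cocultured MEFs and 19 in MEFs alone. Its differences were 0.43 without QNZ and 0.55 with QNZ. Myl6b, a further light chain outside the members, differed by -0.67 without QNZ and by -1.31 with QNZ. The heavy chains differed in direction. Myh11, the smooth muscle heavy chain, had 0.910 FPKM with coculture and QNZ, 2.84 alone with QNZ, 3.50 in coculture and 9.10 alone, 2.60 times lower in cocultured MEFs than in MEFs alone. Myh9, the main non-muscle heavy chain, had 214 FPKM with coculture and QNZ, 197 alone with QNZ, 227 in coculture and 188 alone, a difference of 0.28 that turned negative with median-of-ratios scaling and after a length trend was removed. Myh10, non-muscle heavy chain IIB, was the only member higher by at least 1, with 38.6 FPKM in cocultured MEFs with QNZ, 27.6 in MEFs alone with QNZ, 55.1 in cocultured MEFs and 26.6 in MEFs alone (ratio 2.07, 2.0 to 2.15). Its difference of 1.02 was just past the size of 1, and it was 0.05 after the trend with gene length was removed. Myh11 made up 0.750% of the heavy chain reads in cocultured MEFs and 2.5% in MEFs alone. Mylk, the kinase that switches on smooth muscle myosin, was low throughout at 0.331 FPKM with coculture and QNZ, 0.838 alone with QNZ, 0.967 in coculture and 1.56 alone, with a ratio of 0.619 (0.507 to 0.755).

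Of the genes with mixed isoforms, the tropomyosins were lower and caldesmon was not. Tpm1 had 142 FPKM in cocultured MEFs with QNZ, 262 in MEFs alone with QNZ, 177 in cocultured MEFs and 404 in MEFs alone, a difference of -1.19 without QNZ. Tpm2 had 74.8 FPKM with coculture and QNZ, 191 alone with QNZ, 118 in coculture and 360 alone, a difference of -1.60. Tropomyosins lie along the actin filament and govern the access of myosin, and the general members Tpm3 and Tpm4 differed by -0.92 and -0.50. Cald1, caldesmon, an actin-binding brake on myosin, had 181 FPKM with coculture and QNZ, 122 alone with QNZ, 194 in coculture and 115 alone, a difference of 0.75 in the other direction that became -0.32 after the length trend was removed. Which isoforms of these genes were made cannot be read from levels per gene. Among intermediate filaments, Des, the desmin of muscle, had 2.67 FPKM with coculture and QNZ, 6.38 alone with QNZ, 2.63 in coculture and 5.98 alone, 2.27 times lower in cocultured MEFs than in MEFs alone. Vim, the vimentin of fibroblasts, had 410 FPKM with coculture and QNZ, 622 alone with QNZ, 556 in coculture and 937 alone, a difference of -0.75.

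Within the general class the genes divided by length. The 9 general genes of up to 3500 bases (Actb, Actg1, Tagln2, Cnn2, Cnn3, Myl6, Myl12a, Pfn1 and Cfl1) had a median difference of -1.18 in cocultured MEFs against MEFs alone, and 6 were lower by at least 1. Among these, Pfn1, profilin 1, which feeds monomers to growing filaments, had 201 FPKM with coculture and QNZ, 430 alone with QNZ, 214 in coculture and 610 alone (-1.51). Cfl1, cofilin 1, which severs filaments, had 147 FPKM with coculture and QNZ, 275 alone with QNZ, 159 in coculture and 344 alone (-1.10). The 7 general genes above 8000 bases, which encode the crosslinkers and adhesion scaffolds Flna, Tln1, Vcl, Palld and Pdlim5 and the heavy chains Myh9 and Myh10, all had differences above 0, with a median of 0.40. Myh9, Flna, Tln1 and Palld turned negative with median-of-ratios scaling, and these and Vcl after the length trend was removed. Vcl, vinculin, which links adhesions to actin, had 34.3 FPKM in cocultured MEFs with QNZ, 30.9 in MEFs alone with QNZ, 51.0 in cocultured MEFs and 34.6 in MEFs alone (0.55), with 25.5% of its exonic bases overlapped by Ap3m1 on the opposite strand. Pdlim5, a LIM scaffold of stress fibres, had 29.1 FPKM with coculture and QNZ, 23.0 alone with QNZ, 40.6 in coculture and 21.5 alone (0.89). Flna, filamin A, was nearly level at 311 FPKM with coculture and QNZ, 286 alone with QNZ, 381 in coculture and 353 alone (0.11), as was Tln1, talin 1, at 83.1 FPKM with coculture and QNZ, 74.9 alone with QNZ, 93.1 in coculture and 89.5 alone (0.06). The remaining 8 general genes (Tpm3, Tpm4, Vim, Actn1, Actn4, Zyx, Pdlim7 and Lasp1) lay between these lengths, with differences from -0.94 for Actn4 to -0.07 for Actn1, and as TPM those of Tpm4, Actn1, Zyx, Pdlim7 and Lasp1 turned positive.

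Gene length went with the difference among all genes too, not among the members only. Across the 42 measured members the Spearman correlation between length and the difference of cocultured MEFs from MEFs alone was 0.82, and across all 11335 measured genes it was 0.51, both over genes of the same 2 libraries, which are not independent replicates. The muscle-type genes were shorter, with a median of 2466 bases, than the general ones, with a median of 5119.5 bases. After the trend of all genes with length was taken away, the muscle-type median was -1.33 and the general median -0.85, so the gap between the classes narrowed to -0.48, against -0.67 before. The difference of Acta1 was then -3.0, that of Cnn1 -2.03, that of Actg2 -1.86, that of Myh11 -1.92 and that of Acta2 -1.36. Myl9, the shortest measured member, was at -0.93, and it, Cnn2 and Tagln no longer reached the size of 1. Actn4, Des, Mylk, Tpm3 and Vim newly did, so that 20 members were lower, 8 of them general genes. The correlations were 0.78 across the members and 0.49 across all genes for the coculture pair with QNZ. For MEFs alone with QNZ against MEFs alone, a comparison without coculture, they were 0.64 and 0.33. For QNZ in cocultured MEFs they were 0.26 and 0.08. The length trend was found in whole libraries and its source was not tested. In the coculture comparisons it cannot be told apart from coculture, and in MEFs alone it cannot be told apart from QNZ.

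**Figure D4:**
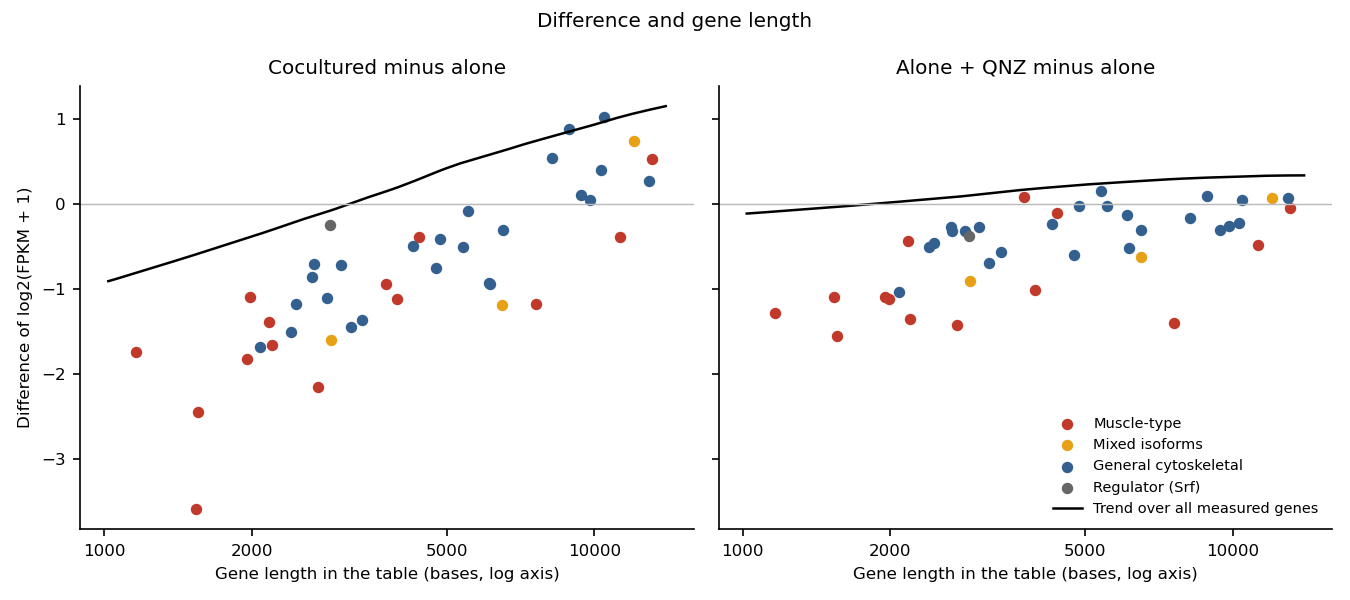
Difference of log2(FPKM + 1) of each measured member (vertical axis) against gene length in bases (log axis), for cocultured MEFs against MEFs alone (left) and MEFs alone with QNZ against MEFs alone (right); the line is the smoothed trend over all 11335 measured genes. Most members lie below the line, and the muscle-type gene Acta1 lies farthest below it on the left, at -3.59.

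The other pair of coculture libraries, both with QNZ, shared no library with the first pair and gave the same direction, with opposite signs in 0 of 42 measured members. Signs were opposite for Synpo2 and Vcl with median-of-ratios scaling, for Smtn, Tpm4, Zyx and Pdlim7 as TPM, and for Myh10 and Pdlim5 after the length trend was removed. Here 15 of the 42 members were lower and 0 higher, against 8.70% and 14.0% of all measured genes, and as TPM 7 members were lower. Of the 14 muscle-type genes 10 were lower and 0 higher, with a median of -1.28. Of the 24 general genes 4 were lower and 0 higher, with a median of -0.61. The gap between the class medians was -0.67 in each pair. Acta1 was 9.33 times lower in cocultured MEFs with QNZ than in MEFs alone with QNZ (ratio 0.107, 0.0961 to 0.119), Cnn1 5.08 times lower, Actg2 3.88, Myl9 3.19 and Acta2 2.67 times lower. Of the muscle-type genes, 9 were lower in both pairs, and of the general genes 4 were (Cnn2, Myl6, Myl12a and Pfn1). At most 8.70% of all measured genes, the share lower with QNZ, can be lower in both pairs. As TPM these 4 general genes did not reach the size of 1 in either pair. After the length trend was removed, Cnn2 and Myl9 did not reach it without QNZ. With QNZ, Csrp1, Myl12a, Myl9 and Pfn1 then did not reach it. Tagln, at -0.41 with QNZ and -1.09 without, reached the size of 1 only without QNZ, and Des, at -1.01 and -0.94, only with it. Tagln2 differed by -0.96 with QNZ and by -1.68 without. Myh10 differed by 0.47 with QNZ and by 1.02 without. The difference was smaller in size with QNZ than without in 30 of the 42 members, and the median of the difference with QNZ minus that without was 0.03. Fewer of all 11335 measured genes reached the size of 1 with QNZ too. They were 1584 higher and 986 lower with QNZ, against 2719 and 1252 without. The counts of smaller differences and of opposite signs over all genes are not given here. Whether QNZ altered the coculture difference of any gene was not tested.

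**Figure D5:**
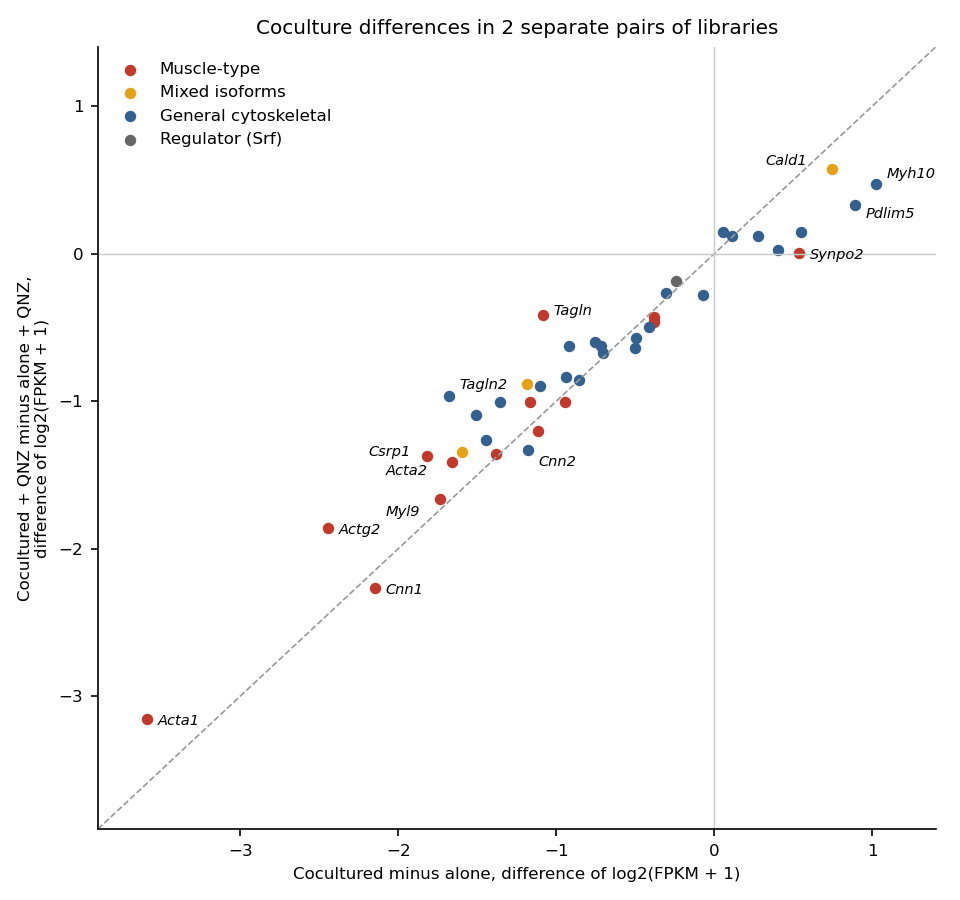
Difference of log2(FPKM + 1) of each measured member between cocultured MEFs and MEFs alone without QNZ (horizontal axis) and with QNZ (vertical axis); the dashed line marks equal differences. The points follow the line, with Acta1 at -3.59 and -3.15 at the low end and Myh10 at 1.02 and 0.47 at the high end.

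In MEFs alone, QNZ also went with lower muscle-type genes. This comparison shares the library of untreated MEFs alone with the coculture comparison without QNZ, so any value particular to that library enters both. In MEFs alone with QNZ, 10 of the 42 members were lower by at least 1 than in MEFs alone and 0 were higher, against 1.49% and 1.11% of all measured genes, and as TPM 6 members were lower. Of the 14 muscle-type genes, 9 were lower, 0 were higher, and the median was -1.10. Of the 24 general genes only Tagln2 was lower (-1.04), 0 were higher, and the median was -0.27. The gap between the class medians was -0.83. The most negative difference was that of Actg2, -1.55, a level 2.97 times lower (ratio 0.337, 0.313 to 0.362), followed by Cnn1 (-1.42), Myh11 (-1.39), Acta2 (-1.35) and Myl9 (-1.28). Acta1 (-1.09), Csrp1 (-1.10), Tagln (-1.12) and Lmod1 (-1.01) made up the rest of the 9. Csrp2 (-0.44) and Mylk (-0.48) did not reach the size of 1, and Des (0.08), Synpo2 (-0.05) and Smtn (-0.10) were almost level; Des turned negative with median-of-ratios scaling, and Smtn and Synpo2 turned positive as TPM. Several general genes were near 0 too, with Actn1 at -0.02 (positive as TPM) and Zyx at 0.16 and Myh9 at 0.07 (both negative with median-of-ratios scaling).

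In cocultured MEFs fewer muscle-type genes reached the size of 1 with the same inhibitor. Of the 42 members 5 were lower by at least 1 in cocultured MEFs with QNZ than in cocultured MEFs and 0 were higher, against 0.759% and 0.309% of all measured genes, and as TPM 7 members were lower, which is more than the 6 in MEFs alone. All 5 were muscle-type genes, a class whose median was -0.66. Of the 24 general genes 0 reached the size of 1 and their median was -0.27. The 5 were Cnn1 (-1.54), Myh11 (-1.23), Myl9 (-1.21), Acta2 (-1.11) and Lmod1 (-1.09). The same 5 genes were lower in all 4 comparisons. At most 0.759% of all measured genes, the share lower here, can be lower in all 4. The 4 comparisons share the same 4 libraries and are not independent of each other. Acta1 and Actg2 differed by -0.66 and -0.96 here. No member was higher by at least 1, and the largest value was that of Tpm3, 0.17.

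Srf itself differed little. It had 30.7 FPKM in cocultured MEFs with QNZ, 35.1 in MEFs alone with QNZ, 38.3 in cocultured MEFs and 45.6 in MEFs alone, with coculture differences of -0.18 with QNZ and -0.25 without. Of 20 further genes for actin assembly 7 were lower in cocultured MEFs than in MEFs alone, beside 11.0% of all measured genes, led by Tmsb10, a monomer-binding thymosin (318 FPKM in cocultured MEFs and 1112 in MEFs alone), Gsn, gelsolin, which severs filaments (208 FPKM in cocultured MEFs and 642 in MEFs alone), and Arpc4, a subunit of the Arp complex that branches filaments (42.2 FPKM in cocultured MEFs and 125 in MEFs alone). Tmsb10, Gsn and Arpc4 are short genes of 1276 to 3157 bases. In this range the trend of all genes with length lies below 0 or near it, and these genes were not tested apart from it. Of 20 measured among 24 other contractile genes 4 were higher and 4 lower, beside 24.0% higher and 11.0% lower of all measured genes. Ppp1r14a, an inhibitor of myosin phosphatase known from smooth muscle, was lower (17.5 FPKM in cocultured MEFs and 69.2 in MEFs alone), as was Pdlim2 (8.62 FPKM in cocultured MEFs and 34.5 in MEFs alone), whereas Itga8, an integrin subunit, was higher (7.06 FPKM in cocultured MEFs and 1.37 in MEFs alone).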

How the data were processed

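RNA was measured in 4 libraries of mouse embryonic fibroblasts, 1 per condition. Library preparation used a kit that marks strand (QIAseq Stranded RNA). The submitters' processing notes name STAR 2.5.4b, Cuffnorm from Cufflinks 2.2.1 and the mouse build mm10. The tool that counted reads, the gene annotation and the strand setting are not given in the sources used here. The deposited table gives, for each gene and library, the read count and the FPKM made by the authors, with gene positions and gene lengths in bases. Each FPKM equalled its read count divided by gene length and by the library's total of counts (0 mismatches at a relative tolerance of 1e-06), so no further scaling lies behind the values. Of 21862 rows, 23 symbols had several gene IDs, and their values were summed, which left 21839 genes.

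Differences were taken between log2(FPKM + 1) values with a pseudocount of 1, counted at a size of at least 1, over the 11335 genes that reached 1 FPKM somewhere. No test was made. Ratios of reads per 1000000 (CPM) carry exact 95% conditional binomial intervals and shares carry Clopper-Pearson intervals, both for counting error only, since reads without molecular identifiers are not independent molecules. The length trend was a lowess fit (span 0.3) over all measured genes. Members, classes and lists were chosen with earlier results of these data known, and the length limits of 3500 and 8000 bases after the values were seen. All members are accounted for. Full values are given for members that reached the size of 1 in either coculture comparison and for the most abundant of each family. From the other lists, the genes named are mostly up to 3 measured genes with the largest difference in coculture without QNZ, not all with full values. Genes such as Col1a2, Myl12b, Myl6b and Tubb3 were named outside this rule. The result of 1 further list is not reported here. Positions of 43 of the 44 members equalled those in GENCODE M21, and shared 50-base stretches were counted in its transcripts. Alternatives were a pseudocount of 0.1, median-of-ratios scaling, TPM, removal of the length trend, sizes of 0.58 and 2, no filter, a filter of 5 FPKM, the mixed genes in either class, 1 gene ID per symbol, shares by FPKM and, chosen after seeing the data, removal of length and GC trends. The steps were tested on simulated counts. Computations ran in Python 3.11.15, with scipy 1.17.1 for intervals, statsmodels 0.14.6 for the trend, pandas 2.3.3 and numpy 2.4.6 for tables, and matplotlib 3.10.9 for plots.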

Additional observations from a re-analysis of the deposited data

How the results depend on the processing

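No paired analysis was possible because each condition had 1 library. The direction of both class medians held under every scaling tried, and the muscle-type median lay below the general one in all 4 comparisons under each alternative that was run. Counts at a fixed size moved more than directions. In the following, coculture means cocultured against alone, and the gap is the muscle-type minus the general median. With a pseudocount of 0.1 the gap was -0.86 for coculture, -0.78 for coculture with QNZ and -0.76 for QNZ in coculture, where 8 muscle-type genes were lower. With median-of-ratios scaling 14 general genes were lower and 0 higher in coculture, and 8 were lower in coculture with QNZ. As TPM, in coculture 6 muscle-type genes were lower and 1 higher, 1 general gene was lower and 3 were higher, and the gap was -0.83. As TPM 0 general genes were lower in coculture with QNZ or with QNZ in MEFs alone, and the gaps were -0.78 for coculture with QNZ and -0.70 for QNZ in coculture. With the length trend removed 0 general genes were higher in coculture, and the gaps were -0.48 for coculture, -0.38 for coculture with QNZ and -0.68 for QNZ in MEFs alone. With length and GC trends removed, an alternative chosen after seeing the data, 0 general genes were higher in coculture, 2 were lower in coculture with QNZ, and the gaps were -0.42, -0.41 and -0.61 in the same comparisons. At a size of 0.58, 12 general genes were lower and 2 higher in coculture, 13 lower in coculture with QNZ, 3 lower with QNZ in MEFs alone and 2 lower with QNZ in coculture, where 8 muscle-type genes were lower. At a size of 2, 3 muscle-type genes were lower in coculture (Acta1, Actg2 and Cnn1), 2 in coculture with QNZ and 0 in either QNZ comparison, and 0 general genes were lower or higher in any comparison. Without a filter the gap was -0.57 for coculture and -0.59 for coculture with QNZ. At 5 FPKM it was -1.06, -0.76 and, for QNZ in coculture, -0.69. With the mixed genes in the muscle-type class it was -0.58 for coculture, -0.59 for coculture with QNZ and -0.74 for QNZ in MEFs alone, and with them in the general class -0.57 for coculture. The muscle share of actin by FPKM was 23.2% in cocultured MEFs with QNZ, 34.5% in MEFs alone with QNZ, 34.8% in cocultured MEFs and 52.1% in MEFs alone. The cause of these moves was not tested beyond their construction. With 1 library per condition, no difference can be set against the spread between cultures, and the intervals given do not include that spread.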

Other observations

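The tubulins, which build microtubules and not actin filaments, were lower in cocultured MEFs with and without QNZ: 11 of 11 listed genes were lower by at least 1 in cocultured MEFs than in MEFs alone, with a median of -1.98 (11.0% of all measured genes were lower), and 10 of 11 in cocultured MEFs with QNZ than in MEFs alone with QNZ, with a median of -1.82 (8.70% of all genes). The tubulins are short genes of 1610 to 3701 bases. At the nearby lengths of Actg2 (1557 bases) and Des (3754 bases), the trend of all genes lay at -0.58 and 0.15 for cocultured MEFs against MEFs alone. With QNZ in both libraries it lay at -0.56 and 0.04. The tubulins were not tested apart from this trend. Tubb4b, a beta-tubulin, had 52.6 FPKM in cocultured MEFs with QNZ, 199 in MEFs alone with QNZ, 56.5 in cocultured MEFs and 263 in MEFs alone. Tuba1c, an alpha-tubulin, had 38.9 FPKM with coculture and QNZ, 147 alone with QNZ, 40.2 in coculture and 187 alone and Tubb6 had 55.5 FPKM with coculture and QNZ, 225 alone with QNZ, 75.4 in coculture and 339 alone. Under QNZ in MEFs alone 1 of 11 was lower, Tubb3, the neuronal beta-tubulin (-1.67), beside 1.49% of all measured genes, and the median was -0.40, so that the tubulins differed with coculture and much less with QNZ, whereas the muscle-type genes had medians of -1.27 with coculture and -1.10 with QNZ.

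Of the fibroblast markers, 4 of 7 measured were higher in cocultured MEFs than in MEFs alone (Fn1, Col3a1, Pdgfra and Pdgfrb) and 0 were lower, while 24.0% of all measured genes were higher. These 4 are long genes of 5478 to 11685 bases, a range in which the trend of all genes with length lies above 0, and they were not tested apart from it. In MEFs alone with QNZ 5 of the 7 were lower than in MEFs alone (Col1a1, Col1a2, Col3a1, Pdgfra and Thy1), beside 1.49% of all measured genes. Col1a2, a chain of type I collagen, had 164 FPKM in cocultured MEFs with QNZ, 94.1 in MEFs alone with QNZ, 281 in cocultured MEFs and 211 in MEFs alone.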
